A study of Homo sapiens with 4 samples.

Results

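Keratins, vimentin and the other intermediate filament proteins were followed on 4 two-colour Agilent expression arrays as 56 gene names of 30982 on the array, by 69 of its 41000 probes. The members were chosen by name, with earlier results of these data known. They are keratin genes (53 probes, 45 genes), without the keratin-associated proteins, and VIM, DES, NES, INA, NEFL, NEFH, GFAP, PRPH, LMNA, LMNB1 and LMNB2 (16 probes, 11 genes). The RNA came from HCT116, a human colon cancer cell line, in stable clones carrying a short hairpin RNA against N-BLR, a long non-coding RNA. Clone #3-1 and clone #4-7 each gave 2 arrays, called biological replicates in the labels, and each array was hybridized together with RNA of empty vector HCT116 cells. Each shRNA label (#3-1 and #4-7) was thus seen in 1 clone, and the labels name no separate control cultures. The p-values measured only the spread between these arrays, which may be technical. The labels name lentiviral delivery of the vectors, while the study's methods describe transfection and drug selection. No probe bears the name N-BLR, so the knockdown itself could not be checked on these arrays. A probe is called measured below where either channel rose well above background on each array. This held for 35 of the 69 probes (29 genes), and these were so in both channels on all 4 arrays.

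Intermediate filaments are rope-like polymers of the cytoplasm and of the inner face of the nuclear envelope. Keratins assemble as obligate pairs of an acidic type I and a basic type II protein, and epithelia differ by the pairs they make: KRT8 with KRT18, KRT19 or KRT20 in simple epithelia such as the gut, KRT5 with KRT14 or KRT15 in the basal layer of stratified epithelia, and the hair keratins in hair. Vimentin, a type III protein, is the filament of mesenchymal cells and is widely used with E-cadherin to follow epithelial-to-mesenchymal transition. Lamins A/C, B1 and B2 form the nuclear lamina, and nestin is a large filament protein of progenitor cells.

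The channels must be read before any direction. The labels place the clone RNA in Cy5 (red) and the empty vector RNA in Cy3 (green) on every array, no array had the dyes swapped, and the study's methods assign no dye. If so, the shared control should make Cy3 alike on all arrays. The intensities ran the other way. Over the 28579 array probes that rose well above background on each array in either channel, the median absolute log2 difference between the arrays of the clones was 0.06 in Cy5, the same as between the arrays of 1 clone (0.06). In Cy3 the corresponding medians were 0.21 between the clones and 0.06 within a clone. All 17 intermediate filament probes that differed between the clones at p under 0.001 did so more in Cy3 than in Cy5, as did 98.3% of the 9135 such measured probes of the whole array. All ratios below are therefore given as Cy5 over Cy3 for the arrays of a named clone. By the labels a ratio above 0 means higher in the clone; if Cy3 carried the clone RNA, every sign turns and no size or test changes.

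**Figure D1:**
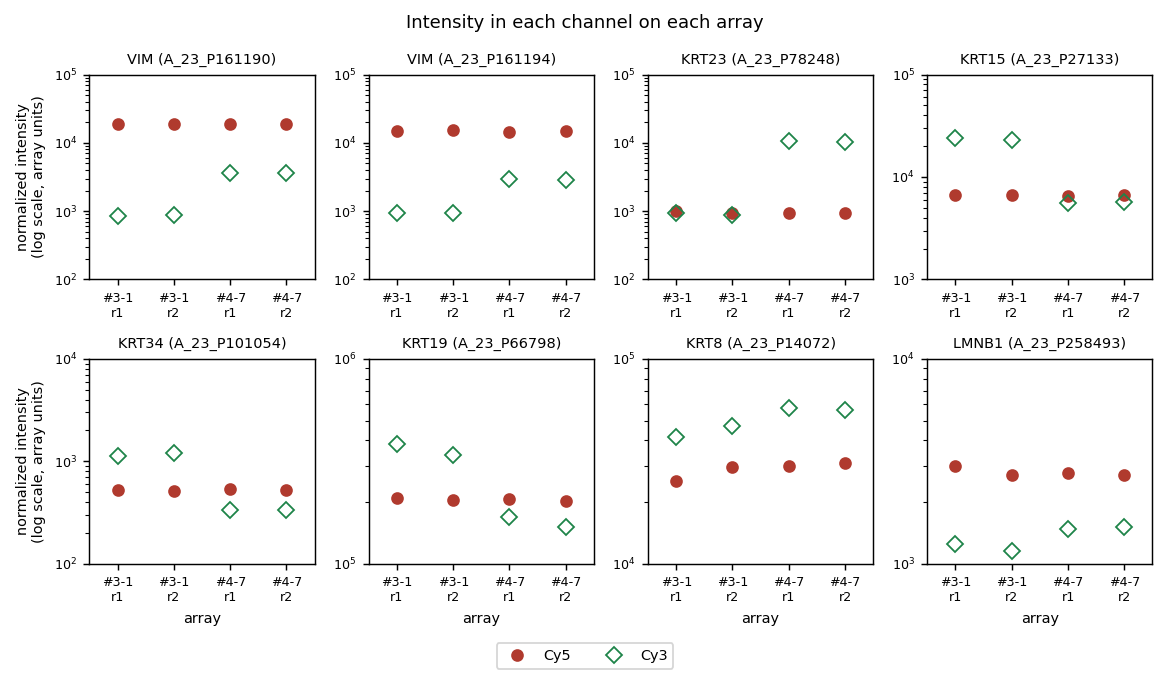
Normalized intensity (log scale, array units) in Cy5 (filled circles) and Cy3 (open diamonds) for 8 probes on the 4 arrays, 2 for each clone (r1 and r2). Cy5 stayed between 18559 and 18821 for the VIM probe A_23_P161190, while Cy3 was 853 and 863 on the arrays of clone #3-1 and 3580 and 3575 on those of clone #4-7.

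The probes on which the largest ratios rest are shown by the first 30 bases of their 60-base oligonucleotides, in lower case because no motif is marked. Those of KRT33A and KRT34 are shown beside each other because hair keratins are close paralogs that cross-hybridization could mix, which was not tested.
VIM A_23_P161190: tgattaagacggttgaaactagagatggac
VIM A_23_P161194: ccagatgcgtgaaatggaagagaactttgc
KRT23 A_23_P78248: tttcctactgcagccttcagattctcatca
KRT15 A_23_P27133: cctgcacatgcaaactccagtccctgcctt
KRT33A A_23_P78265: agctggtggagtcggacatcaatggcctgc
KRT34 A_23_P101054: gatgttcagctccctgtaatctgagctcca
By the array's annotation (hg17) the VIM probes lie at chr10:17318353-17319262 on the plus strand, where the span of 910 bases means that the probe crosses an intron, and at chr10:17317191-17317250. The 4 keratin probes are on the minus strand of chromosome 17, KRT23 at chr17:36332488-36332547, KRT15 at chr17:36923668-36923727, KRT33A at chr17:36758332-36758391 and KRT34 at chr17:36787544-36787603.

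Upstream sequence is given for VIM and for the hair keratins KRT33A and KRT34, since these had large ratios of opposite sign on the arrays of clone #3-1. The 250 bases before each annotated start are from RefSeq (GRCh38.p14) and TATAAA is in capitals: VIM is at chr10:17227991-17228240 on the plus strand, KRT33A at chr17:41350829-41351078 and KRT34 at chr17:41382307-41382556 on the minus strand.
VIM: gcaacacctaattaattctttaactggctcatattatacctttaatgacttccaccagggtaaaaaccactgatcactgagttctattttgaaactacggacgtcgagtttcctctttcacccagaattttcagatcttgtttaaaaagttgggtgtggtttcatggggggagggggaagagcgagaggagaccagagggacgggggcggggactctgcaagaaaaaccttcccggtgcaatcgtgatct
KRT33A: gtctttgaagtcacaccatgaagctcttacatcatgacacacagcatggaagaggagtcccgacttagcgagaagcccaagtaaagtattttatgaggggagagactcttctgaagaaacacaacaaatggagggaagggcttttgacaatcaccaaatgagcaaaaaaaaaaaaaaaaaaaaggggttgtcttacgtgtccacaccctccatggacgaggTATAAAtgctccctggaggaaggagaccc
KRT34: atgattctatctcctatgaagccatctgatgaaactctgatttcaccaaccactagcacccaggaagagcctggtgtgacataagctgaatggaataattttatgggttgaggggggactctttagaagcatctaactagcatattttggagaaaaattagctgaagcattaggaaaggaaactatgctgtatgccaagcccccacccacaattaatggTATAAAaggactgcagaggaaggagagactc
TATAAA, searched on both strands, began 29 bases before the start of KRT33A and 31 bases before that of KRT34, and was absent from the VIM window. TATAAA was also absent from the window of KRT9, another type I keratin called lower on the arrays of clone #3-1. It occurred in 18 of 39 windows of intermediate filament genes (46.2%; 35 of 55 genes had a window) and in 10.7% of all 35116 windows. CACCTG, an E-box core, occurred in 6 of the 39 windows against 17.5% of all windows. TGANTCA, an AP-1 motif, occurred in 0 of 39 against 6.57%. Windows of different starts of 1 gene can overlap, and a match is only a match of letters.

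Vimentin gave the largest ratio. In the arrays of clone #3-1 the VIM probe A_23_P161190 had log2 ratios of 4.46 and 4.44, and in those of clone #4-7 of 2.39 and 2.38. The 4 values were far above 0, with no overlap between the clones. The means were 4.45 (SE 0.03, 21.8-fold) and 2.39 (5.22-fold), with limma adjusted p-values of 3.2e-06 and 4.3e-06. The second probe, A_23_P161194, gave 4.00 and 4.07 for clone #3-1 and 2.28 and 2.36 for clone #4-7, so that both probes placed clone #3-1 above clone #4-7. Its means were 4.04 (SE 0.04, 16.4-fold) and 2.32 (4.98-fold), with adjusted p-values of 4e-06 and 8.1e-06. The difference between the clones was 2.06 and 1.72 for the probes, with adjusted p-values of 2.2e-05 and 4.7e-05. Among all 41000 probes the VIM probes ranked 1 and 4 from the top on the arrays of clone #3-1, and 15 and 17 on those of clone #4-7. Read by the labels, vimentin is higher in the clones. The study gives the opposite direction, with vimentin lower in both clones by array, qRT-PCR and immunofluorescence. Cy5 intensity of A_23_P161190 was 18759, 18732, 18821 and 18559 on the 4 arrays, and Cy3 intensity was 853 and 863 for clone #3-1 against 3580 and 3575 for clone #4-7. Between the clones (clone #3-1 minus clone #4-7) the probes differed by 0.00 and 0.06 on the log2 scale in Cy5 and by -2.06 and -1.66 in Cy3.

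**Figure D2:**
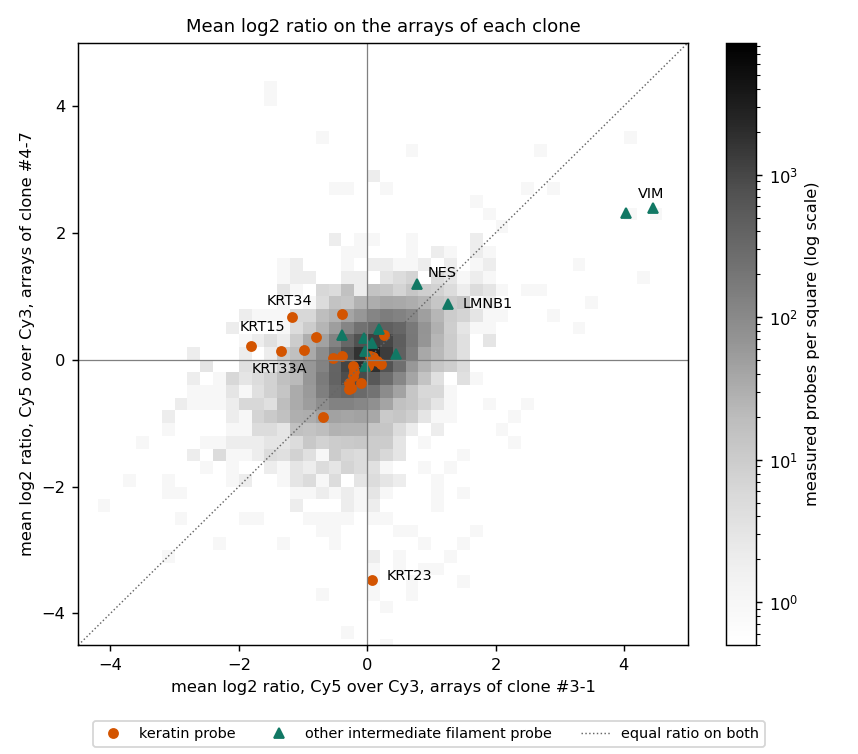
Mean log2 ratio (Cy5 over Cy3) on the arrays of clone #3-1 (horizontal) and clone #4-7 (vertical) for the 35 measured intermediate filament probes, keratins as circles and the others as triangles, over squares shaded by the number of all measured probes (log scale). The VIM probes lie at the top right (4.45 and 2.39 for the upper one), KRT23 far below 0 on the arrays of clone #4-7 only (-3.47), and KRT15, KRT33A and KRT34 to the left.

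At unadjusted p under 0.001, the threshold of the study's methods, 6 of the 69 probes were higher in Cy5 and 15 lower on the arrays of clone #3-1 (8.7% and 21.7% of the probes), where the whole array had 16.3% higher and 16.4% lower. The corresponding counts for clone #4-7 were 12 higher and 7 lower (17.4% and 10.1%), against 16.1% and 15% of the array. A ratio of at least 2-fold at that threshold was met by 3 higher and 3 lower for clone #3-1 (0.822% and 1.3% of the array). It was met by 3 higher and 1 lower for clone #4-7, where the array had 0.498% and 1.21%. In the difference between the clones, 5 probes were higher for clone #3-1 and 12 lower (11% and 11.6% of the array). At 2-fold 3 were higher and 6 lower (1.26% and 1.21% of the array). Leaving out replicate 1 of clone #3-1 brought the 15 lower probes down to 9, and leaving out any single array brought the 5 higher in the difference down to 3. The calls were within 0.0031, 0.0032 and 0.0044 after Benjamini-Hochberg adjustment over all probes.

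Keratins were called lower more often than higher on the arrays of clone #3-1, with 1 higher and 14 lower of 53 probes (1.89% and 26.4%, against 16.3% and 16.4% of the array). For clone #4-7, 5 were higher and 7 lower (9.43% and 13.2%, against 16.1% and 15% of the array). Only 24 of the 53 keratin probes were measured, and no dim one was called. Of these 24, 4.17% were higher and 58.3% lower for clone #3-1, and 20.8% and 29.2% for clone #4-7. The shares of the array are over all its probes, dim ones included. Among 16 probes of other filament proteins, 5 were higher and 1 lower for clone #3-1 (31.2% and 6.25%), and 7 higher and 0 lower for clone #4-7 (43.8% and 0%), beside the same shares of the array. Of the 32 type I keratin probes 10 were lower on the arrays of clone #3-1 (31.2%) and 5 on those of clone #4-7 (15.6%). For the 21 type II probes these counts were 4 (19%) and 2 (9.52%). The median log2 ratio of the 35 measured probes was -0.05 for clone #3-1 and 0.06 for clone #4-7, and that of all 28579 measured probes was 0.02 for each. Both clones gave the same call for 9 probes (5 higher, 4 lower), and 5 probes were lower for clone #3-1 and higher for clone #4-7. Since both clones were set against the same empty vector RNA, these calls are not independent. The same counts over the whole array are not given here.

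**Figure D3:**
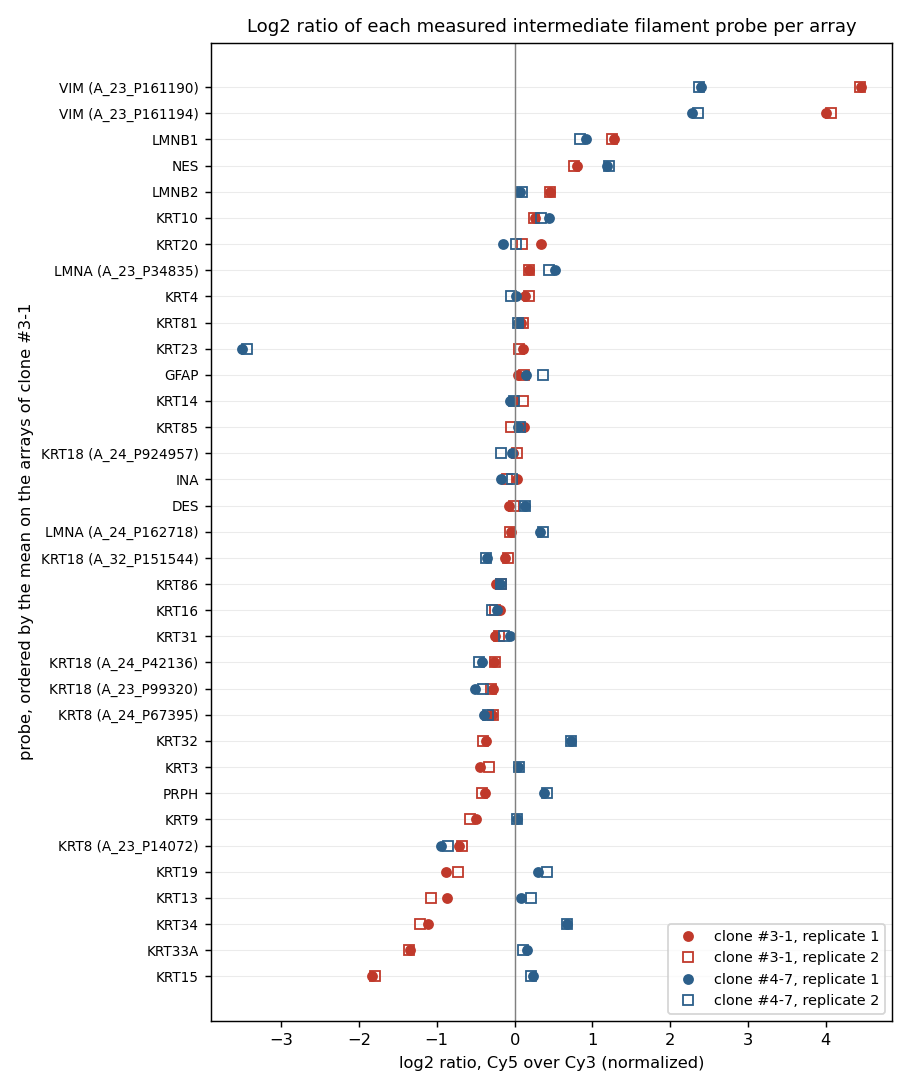
Log2 ratio (Cy5 over Cy3, horizontal axis) of each of the 35 measured probes on the 4 arrays, ordered by the mean for clone #3-1; circles are replicate 1 and squares replicate 2, red for clone #3-1 and blue for clone #4-7. Arrays of a clone nearly coincide, VIM stands at the top (4.46 and 4.44), and KRT15 at the bottom (-1.84 and -1.80).

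The keratins of simple epithelia were led by KRT8 and KRT18, the pair made by nearly all simple epithelial cells. KRT8 probe A_23_P14072 gave log2 ratios of -0.71 and -0.67 on the arrays of clone #3-1 and -0.95 and -0.86 on those of clone #4-7. It was lower in Cy5 in both (mean -0.69, adjusted p = 7e-05, and -0.90, adjusted p = 4.3e-05), without a call in the difference. The other KRT8 probe, A_24_P67395, gave -0.29 and -0.28, then -0.39 and -0.34, and was also called in both. KRT18 probe A_23_P99320 gave -0.28 and -0.30 for clone #3-1 and -0.51 and -0.41 for clone #4-7. KRT18 probe A_24_P42136 gave -0.26 and -0.26, then -0.42 and -0.46. Both were called lower in both clones, and the direction was that of KRT8. KRT18 probe A_32_P151544 gave -0.12 and -0.09, not called, and -0.36 and -0.37, called lower. The fourth probe named KRT18, A_24_P924957, is annotated on the strand opposite to the others, at chr12:51632837-51632897, and gave -0.02, 0.04, -0.03 and -0.17 with no call. The calls for clone #3-1 of KRT8 A_24_P67395 and of KRT18 A_23_P99320 and A_24_P42136 were lost without either array of that clone (-0.26 to -0.30). For clone #4-7 that of KRT8 A_24_P67395 was lost without replicate 1 (-0.34) and that of KRT18 A_32_P151544 without replicate 2 (-0.36).

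KRT19, a type I keratin of simple and ductal epithelia, moved apart from this pair. Its log2 ratios were -0.88 and -0.72 for clone #3-1 and 0.30 and 0.41 for clone #4-7, so the clones lay on opposite sides of 0. The means were -0.80 (SE 0.05, adjusted p = 0.00014) and 0.36 (adjusted p = 0.0026), and the difference of -1.16 had an adjusted p of 0.00026. In Cy3 the KRT19 intensity was 384243 and 338335 for clone #3-1 and 168445 and 151151 for clone #4-7, while Cy5 ranged from 201306 to 208943. The call for clone #4-7 was lost without either of its arrays (0.41 without replicate 1, 0.30 without replicate 2), and with all arrays kept the value for clone #3-1 ranged from -0.55 to -0.80 over the processing alternatives, 3 of which lost its call. KRT20, the keratin of differentiated gut epithelium, gave 0.34 and 0.09, then -0.15 and 0.01, with no call. KRT7, of ductal epithelia and usually absent from colon, was not measured.

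The strongest keratin changes for clone #3-1 were in keratins of stratified epithelia and hair, all type I genes of 1 cluster on chromosome 17. KRT15, a keratin of basal keratinocytes, gave -1.84 and -1.80 for clone #3-1 and 0.23 and 0.21 for clone #4-7. The arrays of clone #3-1 were all below those of clone #4-7. The mean for clone #3-1 was -1.82 (SE 0.03, 3.53-fold, adjusted p = 8e-06) and the difference was -2.04 (adjusted p = 2.6e-05). The mean for clone #4-7 was 0.22 (adjusted p = 0.0019), a call that was lost without any single array (0.21 to 0.23). KRT15 in Cy3 was 23958 and 22974 for clone #3-1 but 5523 and 5725 for clone #4-7, with Cy5 between 6495 and 6714.

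A pair of nearby hair keratins, KRT33A and KRT34, followed the same order, and the KRT33B probe between them was dim. KRT33A gave -1.35 and -1.35 for clone #3-1 against 0.16 and 0.11 for clone #4-7 (means -1.35 and 0.14, adjusted p = 1.3e-05 and 0.014). KRT34 gave -1.12 and -1.22 against 0.67 and 0.67. Its means of -1.17 and 0.67 were called in opposite directions, with adjusted p-values of 2.1e-05 and 9.7e-05. KRT32, another hair keratin, gave -0.37 and -0.40 against 0.73 and 0.73 (adjusted p = 0.00023 and 4.5e-05). The differences between the clones for KRT33A, KRT34 and KRT32 were -1.49, -1.84 and -1.11. The other measured hair keratins, KRT31, KRT81, KRT85 and KRT86, had no call in the difference.

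KRT13, which pairs with KRT4 in mucosal epithelia, gave -0.87 and -1.08 for clone #3-1 and 0.08 and 0.21 for clone #4-7. It was called lower for clone #3-1 (mean -0.98, adjusted p = 0.00013), and with all arrays kept its size ran from -0.98 to -1.60 over the processing alternatives. KRT4 itself had no call. KRT9, a keratin of palm and sole epidermis, had a mean of -0.54 for clone #3-1 (adjusted p = 0.00013) and 0.03 for clone #4-7. The corneal keratin KRT3, from the type II cluster, had -0.39 (adjusted p = 0.0006) and 0.05. The KRT3 call for clone #3-1 was lost without replicate 1 of that clone (-0.33), and its call in the difference (-0.44) without replicate 1 of clone #3-1 (-0.38) and without either array of clone #4-7 (-0.45 and -0.43). KRT31 and KRT86, both hair keratins, were called lower for clone #3-1 at -0.22 and -0.21, and these calls were lost when any single array was left out (-0.20 to -0.25 and -0.18 to -0.23). KRT10, a keratin of suprabasal epidermis, was the only keratin called higher on the arrays of clone #3-1, at 0.26 and at 0.39 for clone #4-7. Its call for clone #3-1 was lost without either array of that clone (0.25 and 0.26), and for clone #4-7 without replicate 1 (0.34). KRT16, a keratin of wounded epidermis, had -0.22 with no call and -0.26, called for clone #4-7 with all 4 arrays but not without any of them (-0.23 to -0.29). KRT14, KRT81 and KRT85 had no call in either clone, with means between -0.04 and 0.09.

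KRT23, a type I keratin, was the only keratin past 2-fold on the arrays of clone #4-7. It gave 0.10 and 0.06 on the arrays of clone #3-1 and -3.50 and -3.44 on those of clone #4-7. The arrays of clone #3-1 were near 0 and those of clone #4-7 far below. The mean for clone #4-7 was -3.47 (SE 0.03, 11.1-fold, adjusted p = 3.3e-06) and ranked 9 from the bottom of all 41000 probes. For clone #3-1 it was 0.08 (adjusted p = 0.088), and the difference was 3.55 (adjusted p = 1e-05). In Cy3 KRT23 was 933 and 890 for clone #3-1 and 10556 and 10275 for clone #4-7, while Cy5 was 1002, 928, 933 and 950. A probe for an unnamed transcript, THC2377635, whose start lies 1.312 kb from that of the KRT23 probe, had 0.01 for clone #3-1 and -1.59 for clone #4-7 (it was looked at after the KRT23 value was seen).

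Position was not used to choose the members. On chromosome 17 (hg17) 28 of the keratin probes lay within 922.542 kb, at chr17:36108020-37030561, together with 33 other probes. The 13 measured keratin probes there had a median log2 ratio of -0.39 for clone #3-1 and 0.14 for clone #4-7, and the 12 measured other probes had -0.02 and -0.01. From KRT33A to KRT9, 8 measured keratin probes in a row (KRT33A, KRT34, KRT31, KRT32, KRT13, KRT15, KRT19 and KRT9) were called lower for clone #3-1, KRT31 only with all 4 arrays. KRT10, KRT20 and KRT23 before them and KRT14 and KRT16 after them were not. The ends of this row were set by the calls themselves, and how often such rows occur was not tested. Over the whole array, dim probes included, 16.4% were called lower for clone #3-1. Within the cluster, keratin-associated protein probes split: KRTAP3-1 had -1.36 for clone #3-1, while KRTAP1-3 had 0.15 and KRTAP2-1 0.05. The 5 measured probes named KRTAP2-4 disagreed, with -1.91, -1.75, -0.50, -0.27 and 0.07. On chromosome 12, 25 keratin probes lay within 715.334 kb, and the 11 measured ones had medians of -0.21 and -0.18. The 5 measured other probes among them had 0.19 and 0.20.

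**Figure D4:**
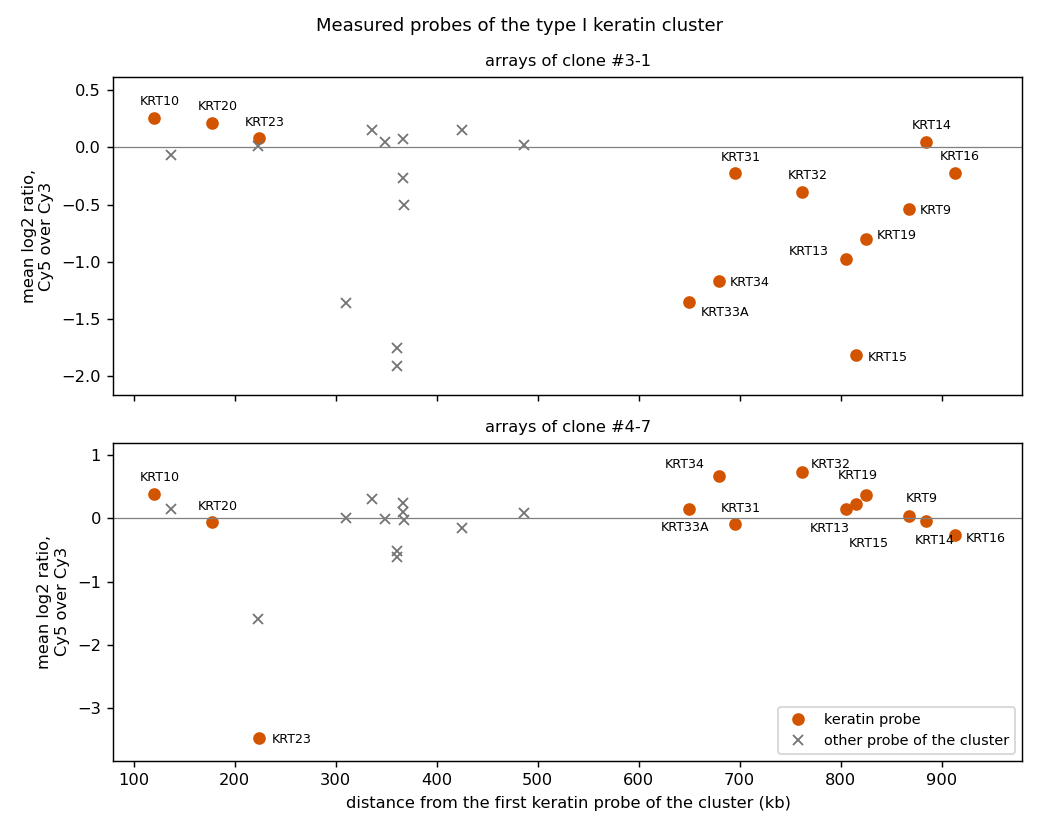
Mean log2 ratio (Cy5 over Cy3) of the measured probes of the type I keratin cluster against distance (kb) from the first keratin probe, for the arrays of clone #3-1 (top) and clone #4-7 (bottom); circles are keratins and crosses other probes. The keratins from KRT33A to KRT9 lie below 0 for clone #3-1, down to -1.82 for KRT15, and KRT23 lies at -3.47 for clone #4-7.

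The 4 nuclear lamin probes, all measured, stand for 3 genes. The array's shares below include its dim probes, so they are not matched to these 4. Higher calls numbered 2 for clone #3-1 and 3 for clone #4-7 (50% and 75%, against 16.3% and 16.1% of the array). None was called lower in either clone. LMNB1, which encodes lamin B1, gave 1.27 and 1.25 on the arrays of clone #3-1 and 0.91 and 0.85 on those of clone #4-7. It was higher in Cy5 on all 4 arrays, at 1.26 (SE 0.03, 2.39-fold, adjusted p = 1.6e-05) and 0.88 (1.84-fold, adjusted p = 3.8e-05). LMNB2 gave 0.46 and 0.45 for clone #3-1, called higher (adjusted p = 0.00014), and 0.07 and 0.10 for clone #4-7, not called. LMNA, the source of lamins A and C, showed the reverse order between the clones. Its probe A_23_P34835 gave 0.18 and 0.18, then 0.52 and 0.45, and A_24_P162718 gave -0.04 and -0.06, then 0.32 and 0.36. Both LMNA probes were called higher for clone #4-7 only (0.48 and 0.34, adjusted p = 0.00017 and 0.0004). The A_24_P162718 call was lost without replicate 2 of clone #4-7 (0.32). The differences between the clones were 0.38 for LMNB1, 0.37 for LMNB2, and -0.30 and -0.39 for the LMNA probes, and none of these was called with any single array left out (0.34 to 0.41, 0.36 to 0.39, -0.27 to -0.34 and -0.38 to -0.41).

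Nestin and the filament proteins of neurons and muscle completed the set. NES gave 0.80 and 0.76 for clone #3-1 and 1.19 and 1.21 for clone #4-7, all above 0 and higher for clone #4-7. The means were 0.78 (1.72-fold, adjusted p = 3.2e-05) and 1.20 (2.29-fold, adjusted p = 1.7e-05). The NES difference of -0.42 was called with all arrays and not without replicate 2 of clone #3-1 (-0.40) or either array of clone #4-7 (-0.43 and -0.41). PRPH, encoding peripherin of peripheral neurons, had -0.39 for clone #3-1 and 0.39 for clone #4-7, with adjusted p-values of 0.00026 and 0.00029. The PRPH call for clone #4-7 was lost without its replicate 2 (0.37). Desmin of muscle (DES), internexin (INA) and the measured probe of glial GFAP had no call. The NEFL probe A_24_P18137 was left out on replicate 2 of clone #4-7, where the scanning software marked it as an outlier: its raw Cy5 mean was 1335 there against 84.1 to 94.4 on the other arrays.

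The remaining 34 probes were dim: 29 were not well above background in any of the 8 channel readings and 5 in some only. None was called in either clone or in the difference, which says nothing on levels below background. They left 27 genes without a measured probe: KRT1, KRT2, KRT5, KRT6B, KRT6C, KRT7, KRT12, KRT17, KRT24, KRT25 to KRT28, KRT33B, KRT35 to KRT38, KRT77, KRT82, KRT83, NEFL, NEFH and those under older names in the array's annotation (KRT2B, now KRT76; KRT6E, now KRT6C; KRT6IRS, now KRT71; KRT6L, now KRT79). Outside the name rule, 8 probes carry older names of keratins. Of these KRT80 (named LOC144501) was called higher for clone #3-1 at 0.72 and not for clone #4-7 at 0.19, and KRT222 (named KA21) had -0.35 and 0.21, both called.

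Probes for proteins that tie filaments to junctions and to each other were called lower more often than higher in each clone. The 28 probes for plakins and linkers stand for 14 genes, with several probes each for DST and AHNAK, and 26 were measured. Of the 28, 4 were higher and 18 lower for clone #3-1 (14.3% and 64.3%, against 16.3% and 16.4% of the array). For clone #4-7, 4 were higher and 14 lower (14.3% and 50%, against 16.1% and 15%). The array's shares include its dim probes, so they are not matched to a list with 26 of 28 measured. The medians of the 26 measured were -0.40 and -0.28, against 0.02 for all measured probes of the array in each clone. JUP, the junction protein plakoglobin, had -1.29 and -0.93. PPL, the cornified-envelope plakin periplakin, had -1.26 and -0.50. PKP3, the desmosomal plakophilin 3, had -0.91 and -0.52. TRIM29, a TRIM family protein, had -0.90 and -0.70, with ranges down to -3.63 and -3.69 over the processing alternatives, some of which lost its calls. PLEC1, the cytolinker plectin, had -0.66 and -0.44 by A_23_P22119 and -0.37 and -0.06, the latter not called, by A_24_P913056. Of 6 DST probes of the plakin dystonin 5 were called lower in both clones (-0.33 to -0.74 and -0.47 to -1.29), and A_32_P119726 had -0.27 and -0.15 with no call. The call of DST A_23_P348159 for clone #3-1 was lost without either array of that clone (-0.35 and -0.32). The large scaffold AHNAK disagreed between probes. With all arrays 3 AHNAK probes were called lower in both clones (-0.64 to -0.73 and -0.27 to -0.40), but for clone #4-7 the calls of A_23_P127789 and A_23_P426636 were lost without either array of that clone (-0.25 to -0.30) and that of A_24_P912684 without replicate 2 (-0.38). AHNAK A_24_P943393 had -0.34, called, and -0.03, not called, and A_23_P21363 had -0.59 and 0.63. TCHP, the keratin-binding trichoplein, was higher at 0.54 and 0.61.

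Of 31 probes for lamina partners, 12 were higher and 4 lower for clone #3-1 (38.7% and 12.9%, against 16.3% and 16.4% of the array). For clone #4-7, 13 were higher and 4 lower (41.9% and 12.9%, against 16.1% and 15%). Of the 31 probes 29 were measured, against 28579 of 41000 on the array. The array's shares include its dim probes, so they are not matched to this list. The medians of the 29 measured were 0.20 and 0.01, the latter close to the 0.02 of all measured probes. TMPO, encoding lamina-associated polypeptide 2, had 1.17 and 0.24 by A_23_P325040 and 0.91 and 0.37 by A_24_P210244. The TMPO value of 0.24 was no longer called when any single array was left out (0.21 to 0.26). NUP153, a nuclear pore protein that touches the lamina, had 0.67 and 0.46, and TOR1A, the nuclear envelope ATPase torsin A, 0.63 and 0.46. ZMPSTE24, the protease that matures lamin A, had 0.60 and -0.04, the latter not called. SYNE2, a linker of nucleus and cytoskeleton, had 0.44 and -0.61 by A_23_P140277 and -0.01, not called, and -0.71 by A_24_P68311. Of 6 probes for other filament proteins 1 was lower for clone #3-1 and 3 for clone #4-7 (16.7% and 50%, against 16.4% and 15% of the array). DMN (desmuslin, now SYNM) had -0.56 and -1.70, and BFSP1 of the lens -0.13, not called, and -1.23. Among 17 squamous envelope probes, 5 were measured. Of the 17, 2 were lower for clone #3-1 and 2 for clone #4-7 (11.8% each, against 16.4% and 15% of the array). CSTA, a protease inhibitor of the envelope, had -0.42 and -1.93 by A_23_P170233, and the call for clone #3-1 was lost without either of its arrays (-0.39 and -0.45). Its other probe, A_23_P41114, which was not measured, had -0.14, not called, and -0.76, called. The crosslinking enzyme TGM1 had -0.83 and 0.13, the latter not called.

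**Figure D5:**
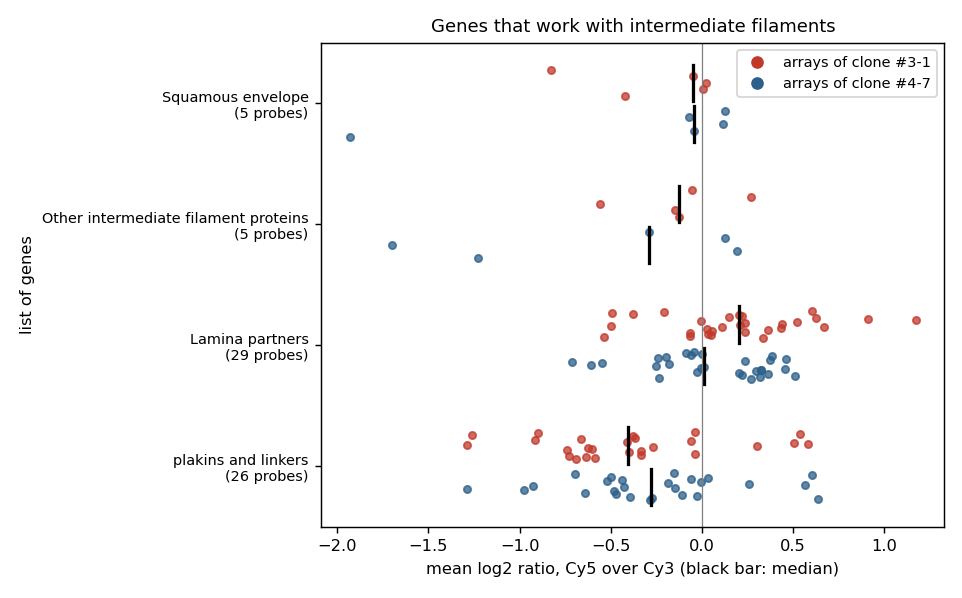
Mean log2 ratio (Cy5 over Cy3) of each measured probe (points) in the 4 lists of genes that work with intermediate filaments, red for the arrays of clone #3-1 and blue for those of clone #4-7, with the median of each as a black bar. Plakins and linkers have medians of -0.40 and -0.28, lamina partners of 0.20 and 0.01.

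The label of a colon epithelial line was checked on markers of that cell type and of others. The 20 probes of colon epithelial markers stand for 13 genes and include the KRT8, KRT18, KRT19 and KRT20 probes described above. Of these 20, 16 were measured, and the shares of the array below include its dim probes. For clone #3-1, 0 were higher and 10 lower (0% and 50%, against 16.3% and 16.4% of the array). For clone #4-7, 3 were higher and 8 lower (15% and 40%, against 16.1% and 15%). CDH1 (E-cadherin) had -2.60 and -1.34, ELF3 -2.04 and -0.93 and TACSTD1 (now EPCAM) -1.04 and -0.44. Read by the labels, CDH1 is lower in the clones, while the study reports it higher in both by array, qRT-PCR and immunofluorescence. VIL2 (now EZR), which encodes ezrin of microvilli, had opposite calls in the clones, -0.77 and 0.80 by A_23_P19590 and -1.16 and 0.39 by A_24_P290481. With KRT19 these were the 3 probes higher for clone #4-7. The gut markers CDX2, GPA33 and LGALS4 were measured and had no call in either clone, and VIL1 and CDX1 were not measured. In the fibroblast list 2 of 11 probes were measured (COL1A1 at -0.59 and -1.13, and THY1 with no call), and all probes of COL1A2, COL3A1, DCN, LUM and FAP were dim. In the leukocyte list 5 of 7 probes were measured, for 4 of its 5 genes. PTPRC, the defining leukocyte marker, was dim by both probes, while CD68 (-0.73 and 1.04) was measured and called in both clones. In the neural list 5 of 10 probes and in the muscle list 5 of 7 were measured, with NES, MAP2 and ACTA1 the genes called. The part of other cells in these ratios was not tested. In RNA of whole cultures, fewer cells with a transcript and less of it in each cell cannot be told apart.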

How the data were processed

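RNA of the clones and of empty vector cells had been labelled with Cy5 and Cy3 and hybridized to 4 Agilent arrays. The deposited scanner files hold intensity values (mean signal, local background and processed signal per channel) from Agilent Feature Extraction, version 8.5.1.1 per the labels. A deposited table holds log10 ratios, which equalled the files' own log10 ratios within 0.005. Both describe 41000 distinct probes. Mean signals were background-corrected by normexp with an offset of 50, then normalized by loess (each array) and by quantiles (across arrays), with control spots left out and outlier spots set missing. Spots of 1 probe were averaged. A linear model with a term per clone was fitted to all 4 arrays and all probes in limma 3.58.1 (R 4.3.3) with eBayes, with tests two-sided. The ratio was set against 0, so the spread of the control, 1 RNA, was not included. Calls used unadjusted p under 0.001, as in the study's methods, and p-values were adjusted by Benjamini-Hochberg over all probes. The number of arrays limits the precision: the median SD between arrays of a clone was 0.03 on the log2 scale for measured probes. All arrays were on 1 slide, so no slide or scan could be compared.

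Members and lists were chosen with earlier results of these data known. Text names every measured member probe called in a clone or in the difference, with each array's values for those at 1.5-fold or more and for KRT8, KRT18, KRT19, KRT20, VIM and the lamins, and probes of the partner lists at 1.5-fold or more with a call. Of 69 member probes 63 matched a RefSeq accession, and 4 of them have another symbol now. Alternatives changed the background correction, the normalization, the source of the values, the filter, the prior variance, the threshold, the replicate block and the arrays used. The fit was tested on simulated data. 1 marker of the leukocyte list is not reported here.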

Additional observations from a re-analysis of the deposited data

Results flagged for a closer look

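Differences between the clones past p under 0.001 were found for 17 of the 69 probes by the test of the difference itself (log2 ratio of clone #3-1 minus clone #4-7, Cy5 over Cy3). It was above 0 for KRT23 (3.55), VIM (2.06 and 1.72 by its probes), LMNB1 (0.38) and LMNB2 (0.37). It was below 0 for KRT15 (-2.04), KRT34 (-1.84), KRT33A (-1.49), KRT19 (-1.16), KRT13 (-1.12), KRT32 (-1.11), PRPH (-0.79), KRT9 (-0.57), KRT3 (-0.44), NES (-0.42) and LMNA (-0.39 and -0.30). Groups of 2 arrays are too small for a check of single outlying arrays.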

How the results depend on the processing

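Of the values of single probes computed under 16 alternatives (2867 in all), 2548 kept their call and direction, 281 lost the call, 38 gained one, and no called value turned sign. Vimentin kept its calls in both clones throughout, from 4.44 to 4.64 and 4.00 to 4.26 for clone #3-1 and from 2.32 to 2.41 and 2.26 to 2.36 for clone #4-7. Of the other 80 values of member probes, 27 lost a call under at least 1 alternative. Loss of calls was not limited to small values: the differences of KRT13 (-1.12) and KRT19 (-1.16) were each lost under 2 alternatives.

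For clone #3-1 the 15 lower probes became 9 under normexp with an offset of 0 and 7 under plain subtraction (9 to 13 leaving out 1 array), and the 6 higher became 13 at Benjamini-Hochberg adjusted p under 0.05. For clone #4-7 plain subtraction left 7 of 12 higher and 4 of 7 lower, and the adjusted threshold gave 11 lower. In the difference the 5 higher became 3 under plain subtraction, 3 with Feature Extraction processed signals, 9 with an intensity trend in the prior variance, 12 at the adjusted threshold and 3 without any 1 array, and the 12 lower became 5 under plain subtraction. The median log2 ratio for clone #3-1 was -0.0683 with an offset of 0, -0.0841 under plain subtraction and -0.0865 to -0.0505 leaving out 1 array. For clone #4-7 it was 0.0859 under plain subtraction and 0.0353 without normalization between arrays or with Aquantile. Under plain subtraction dim spots with no signal above background are missing. The cause of the other shifts was not tested.

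The arrays of the clones share the replicate numbers 1 and 2, but nothing ties arrays of equal number together, and the correlation of their deviations was -0.02. With the replicate block, the counts were 5 higher and 12 lower for clone #3-1, 11 and 7 for clone #4-7, and 5 and 11 in the difference.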
